A study of Triticum turgidum subsp. durum with 96 samples.

Results

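The miR156 family was represented by 7 of the 110 conserved miRNA sequences listed for durum wheat, chosen because the first miRNA name of the row belongs to MIR156. The values were described in 96 small RNA libraries made from flag leaf (FL) and developing head (H) of 48 plants of Triticum turgidum subsp. durum. Each plant gave 1 library of each organ. The genotypes were Tamaroi and Yawa, labelled as tolerant of water deficit stress, and EGA Bellaroi and Tjilkuri, labelled as sensitive. Plants of the control group (CG) were held at 12% soil water and plants of the water deficit group (WG) at 6% for 15 days from booting, in 2 growing seasons, so that each of the 16 groups held 6 libraries, 3 per season. No group carried a transgene or a mutation. The replicates were separate, individually numbered plants of 1 cultivar, and the pairs compared by breeding background were Tamaroi with EGA Bellaroi and Yawa with Tjilkuri. The files hold no mRNA, so the labelled organs could not be checked against marker genes, and the targets of miR156 were not measured.

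In plants, miR156 guides the cleavage and translational repression of transcripts of SPL genes, which encode the SQUAMOSA PROMOTER BINDING PROTEIN-LIKE transcription factors. In Arabidopsis, miR156 is abundant in juvenile shoots and declines with age, and the SPL factors thereby released promote the change to adult growth and flowering, in part by raising miR172. miR172 represses APETALA2-like factors, which hold back flowering. In rice, miR156 and SPL genes also act on tillering, panicle branching and grain traits.

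The mature sequences show why the members have to be read as groups of near-identical small RNAs. They are given from the 5′ to the 3′ end with bases 2 to 8, the seed, in capitals.
Ath-miR156b: tGACAGAAgagagtgagcac
Tae-miR156: tGACAGAAgagagtgagcaca
Gma-miR156q: tGACAGAAgagagtgagcact
Zma-miR156k: tGACAGAAgagagcgagcac
Ath-miR156g: cGACAGAAgagagtgagcac
Gma-miR156k: tTGACAGAagagagtgagcac
Bdi-miR156h: gCTCACTGctcttcctgtcatc

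Ath-miR156b, a sequence of 20 nt listed under 10 miRNA names from 5 species, is the common core. Tae-miR156, the member named from bread wheat, and Gma-miR156q each carry 1 extra base at the 3′ end. Zma-miR156k differs from the core by T14C and Ath-miR156g by T1C, counted from the 5′ end of Ath-miR156b. These 5 members share the seed GACAGAA. Gma-miR156k holds the whole core behind 1 extra 5′ base, which moves its seed to TGACAGA. Bdi-miR156h, 22 nt long, is unlike the others, at an edit distance of 14 from the core, and it has 18 bases in the same order as the reverse complement of the core, against 7 or 8 for each of the other 6 members. In a miRNA hairpin the strand that pairs with the mature miRNA is called the star strand, and which arm Bdi-miR156h came from was not tested. The closest sequence outside the family lay at an edit distance of 8 from the core, and distances of outside sequences to the other members were not taken. Reads were matched by the authors with up to 2 mismatches, so reads of members that differ by 1 base may have been shared or split among them.

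Depth in the 96 libraries ranged from 0.609 to 36.1 M small RNA reads, with a median of 5.22 M, and 4 head libraries held fewer than 1 M (EGA Bellaroi WG 1a and 2b, Tjilkuri CG 2a and Tjilkuri WG 2c). In the deposited unit, reads per 1000000 small RNA reads (RPM), 1 read was worth 1.64 RPM in the shallowest library and 0.0277 RPM in the deepest. Behind the values stood a median of 12283 reads of Ath-miR156b in FL and 1015 in H libraries. At the other end, Ath-miR156g rested on a median of 40 reads in FL and 3 in H, and 25 of the 48 head libraries held at most 3 reads of it. Head values of Ath-miR156g, Zma-miR156k and Gma-miR156q are therefore close to the counting limit. Of the 6 Yawa WG heads, 3 (1a, 2b and 2c) stood apart in the total of the 110 listed miRNAs, with 5514, 6428 and 7879 RPM beside 16001 to 17125 RPM in the other 3. They were the lowest totals of all 48 head libraries, and at 4.58, 4.00 and 3.97 M reads these were not shallow libraries. The leaf of the 2c plant, Yawa FL WG 2c, had the lowest total of all 48 leaf libraries (13510.5 RPM). It was kept where the 3 heads were left out. Results that rest on the Yawa WG heads are given with and without those 3 heads, a choice made after seeing the data.

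Family members were far more abundant in flag leaves than in developing heads, in every genotype and under both treatments. Ath-miR156b and Gma-miR156k made up nearly all of the family in both organs. The sum of the 7 members was 3562 RPM ± 1651 (SD, n = 48) in FL and 444 RPM ± 217 (SD, n = 48) in H, and the 2 organs did not overlap in any of the 8 combinations of genotype and treatment. As a share of the RPM of all 110 listed miRNAs, the family took 9.80% ± 3.13 (SD, n = 48) in FL and 2.67% ± 0.929 (SD, n = 48) in H. In a tissue sample, fewer cells that make a miRNA and less of it per cell cannot be told apart.

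Ath-miR156b ranged from 407 RPM over a median of 1838 to 4460 RPM in FL, and from 60.9 over 247 to 807 RPM in H. By median rank among the 110 miRNAs of a library it stood at 5 in FL and 11.5 in H. Gma-miR156k ranged from 282 over 1418 to 3797 RPM in FL and from 26.7 over 131 to 371 RPM in H. Across all 48 libraries of each organ the lowest leaf values of both overlapped the highest head values, since genotypes, treatments and seasons are pooled in these ranges. Tae-miR156 had 63.0 RPM ± 31.4 in FL and 9.72 RPM ± 4.69 in H (SD, n = 48). Gma-miR156q had 27.6 RPM ± 15.6 in FL and 2.28 RPM ± 1.60 in H (SD, n = 48), with no read in 1 head library. The remaining members were low in both organs, with FL means of 14.4 RPM ± 8.16 for Zma-miR156k, 18.5 RPM ± 12.5 for Bdi-miR156h and 6.53 RPM ± 3.24 for Ath-miR156g (SD, n = 48), and H means of 1.56 RPM ± 1.04, 3.59 RPM ± 2.07 and 0.976 RPM ± 0.666. Zma-miR156k and Ath-miR156g each had no read in 3 head libraries.

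All 7 members were lower in H than in FL in all 8 comparisons, which is 56 of 56 tests by limma on log2(RPM + 1) with Benjamini-Hochberg adjustment over the 110 miRNAs at a threshold of 0.05. Sequences were listed at 2 RPM or more in at least 50% of libraries, which leaf libraries alone can meet. Ath-miR156g, Zma-miR156k and Gma-miR156q had H medians under 2 RPM (0.848, 1.31 and 1.98), so they met this rule mostly through leaves. Their tests are thus no independent support for a lower level in heads. Ath-miR156b and Gma-miR156k exceeded 2 RPM in every head library. The background is high: the share of all 110 miRNAs called lower in H was 45.5% and 54.5% in Tamaroi (CG and WG), 58.2% and 54.5% in EGA Bellaroi, 44.5% and 58.2% in Yawa, and 48.2% and 49.1% in Tjilkuri. The median change of the members was larger than that of the table. It ran from -2.94 to -2.11 over the 8 comparisons on the log2(RPM + 1) scale, beside -1.21 to -0.75 for all 110 miRNAs. By a rule on the ratio of mean RPM (above 1.5 with at least 10 RPM in 1 of the groups), 47 of 56 member comparisons were lower in H, beside 49.5% of all 880. Members with a head mean under 10 RPM could meet this rule only through the leaf. The libraries of the 2 organs did not overlap in 50 of 56 member comparisons, beside 33.5% of all 880.

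Gma-miR156k showed the steepest drop among the members above 50 RPM, with log2 changes of -3.84 to -2.75 (SE 0.34) and FL means 7.19- to 15.1-fold those of H. For Ath-miR156b the changes were -3.18 to -2.29 (SE 0.32) and the folds of means 5.16 to 9.86. Tae-miR156 changed by -2.94 to -2.11 (SE 0.37), with folds of 4.60 to 8.66. The 3′-extended Gma-miR156q changed by -3.49 to -2.70 (SE 0.36), which overlaps the range of the 5′-extended form. Among the single-base variants, the changes were -2.74 to -1.86 (SE 0.35) for Zma-miR156k and -2.27 to -1.59 (SE 0.29) for Ath-miR156g. These values understate the change of members near 1 RPM in H, because 1 is added before the logarithm. Bdi-miR156h, the sequence least like the core, changed by -2.37 to -1.41 (SE 0.43), and its largest adjusted p by limma was 0.00394.

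The RPM unit takes all small RNA reads of a library as its base, and the listed miRNAs filled more of that base in FL (35267 RPM on average) than in H (16323 RPM). The values were therefore also scaled by the median ratio of each library to the geometric mean of all libraries (median-ratio scaling). Only listed miRNAs with reads in all 96 libraries set this factor, so the median of all 110 need not become level. Scaling moved the median change of all 110 miRNAs to between -0.29 and -0.19 and that of the members to between -2.08 and -1.495. It also moved the split of all calls, for example from 10 higher and 50 lower in H to 24 higher and 35 lower in Tamaroi CG. Members were then lower in H in 54 of 56 tests. The exceptions were both Bdi-miR156h, in EGA Bellaroi CG (-0.90, adjusted p = 0.0623 by limma) and in Yawa CG (-0.88, adjusted p = 0.0708).

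**Figure D1:**
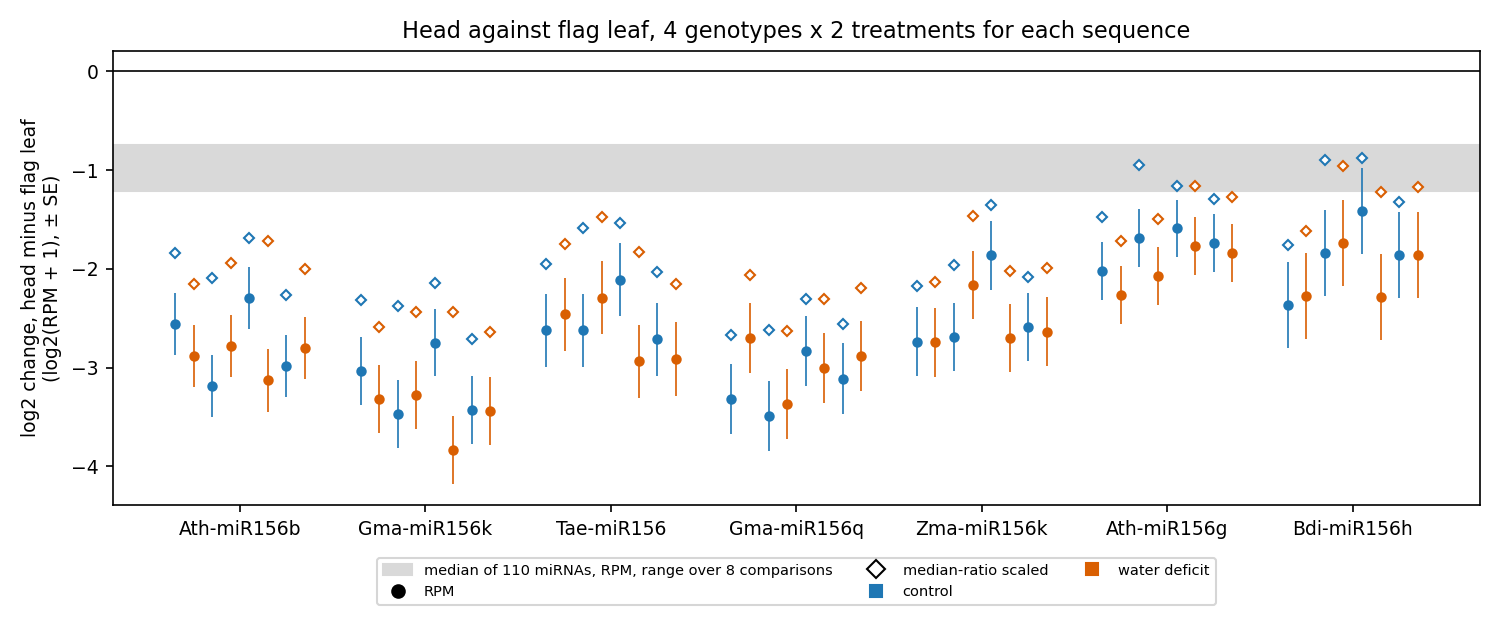
Log2 change of each miR156 member from flag leaf to head (y axis, log2(RPM + 1) units), with 8 comparisons per member, control in blue and water deficit in orange. Filled points with bars are RPM values ± SE from limma, open diamonds the same comparison after median-ratio scaling, and the grey band the range of the median change of all 110 miRNAs on RPM. All filled points lie below 0, from -3.84 to -1.41.

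Because both organs came from the same plants, the ratio could also be taken plant by plant. Leaf exceeded head in all 48 plants for the family sum, with a median ratio of 7.76 (range 3.70 to 27.4), and in all 48 plants for 6 of the 7 members. Median ratios were 6.57 for Ath-miR156b, 10.2 for Gma-miR156k, 5.80 for Tae-miR156, 11.1 for Gma-miR156q, 8.80 for Zma-miR156k and 7.66 for Ath-miR156g. Bdi-miR156h was higher in the leaf in 46 of 48 plants, with a median ratio of 5.08. The total of the 110 miRNAs was also higher in the leaf of all 48 plants, by a median of 2.08-fold, and the family's share of that total by 3.55-fold.

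The balance between the 2 main members differed between organs. Gma-miR156k was present at 0.759 ± 0.0846 of the RPM of Ath-miR156b in FL and at 0.545 ± 0.106 in H (SD, n = 48). This ratio needs no scaling between libraries, since both values come from the same library. It was lower in the head than in the leaf of 47 of 48 plants. Accordingly, Ath-miR156b made up 54.8% of the family sum in FL and 62.3% in H, and Gma-miR156k 41.4% and 33.5%. Group means of the ratio ran from 0.678 (Yawa CG) to 0.840 (Tjilkuri WG) in FL and from 0.429 (Yawa WG) to 0.641 (EGA Bellaroi CG) in H, so that the highest head group lay below the lowest leaf group. Seasons gave close means, at 0.779 and 0.739 in FL and 0.543 and 0.546 in H for seasons 1 and 2. A similar shift was seen among the low 3′-extended forms, for which the ratio of Gma-miR156q to Tae-miR156 was 0.445 in FL and 0.245 in H and was lower in the head of 43 of 48 plants. The ratios are descriptions and were not tested, and reads shared between near-identical members would enter both sides of them.

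**Figure D2:**
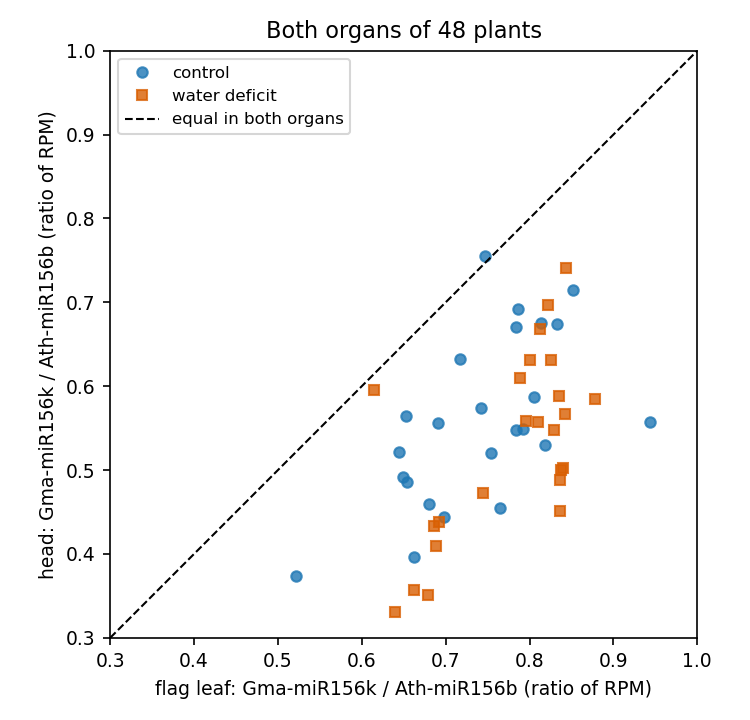
Ratio of Gma-miR156k to Ath-miR156b (RPM over RPM, no unit) in the head (y axis) against the flag leaf (x axis) of each of the 48 plants, controls as blue circles and water deficit as orange squares. The dashed line marks equal ratios, and 47 of 48 plants lie below it.

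Within flag leaves, with seasons pooled, the mean family sum followed the order Tamaroi, EGA Bellaroi and Tjilkuri, Yawa. Group means were 4909 RPM ± 1832 in Tamaroi WG and 4773 ± 769 in Tamaroi CG, 3746 ± 2525 in EGA Bellaroi CG, 3714 ± 905 in Tjilkuri WG, 3693 ± 1275 in EGA Bellaroi WG, 3183 ± 1466 in Tjilkuri CG, 2387 ± 1157 in Yawa CG and 2088 ± 952 in Yawa WG (SD, n = 6). The SD of EGA Bellaroi CG includes 1 library of 8592 RPM, with the other 5 between 1439 and 3616, and without the libraries of its label (1b) all 56 organ calls were still made. Every neighbouring pair in this order overlapped in range and differed by less than the larger SD. In control leaves Tamaroi was at 0.908 of EGA Bellaroi in season 1 and at 2.09 times it in season 2. In stressed leaves Tamaroi was higher in both seasons (1.72 and 1.09). Yawa was below Tjilkuri in both seasons and treatments. The WG mean of EGA Bellaroi leaves was 0.543 of the CG mean in season 1 and 1.97 times it in season 2. In heads the order was Tamaroi CG (756 ± 312), Tamaroi WG (586 ± 184), EGA Bellaroi WG (469 ± 137), Tjilkuri WG (447 ± 109), Yawa CG (411 ± 84.7), EGA Bellaroi CG (349 ± 127), Tjilkuri CG (338 ± 85.0) and Yawa WG (196 ± 86.2). Here only the last step, from Tjilkuri CG to Yawa WG, was larger than the SD of either group, and their ranges still overlapped. Leaf means were 5.81 (Yawa CG) to 10.7 (EGA Bellaroi CG) times the head means of the same genotype and treatment.

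**Figure D3:**
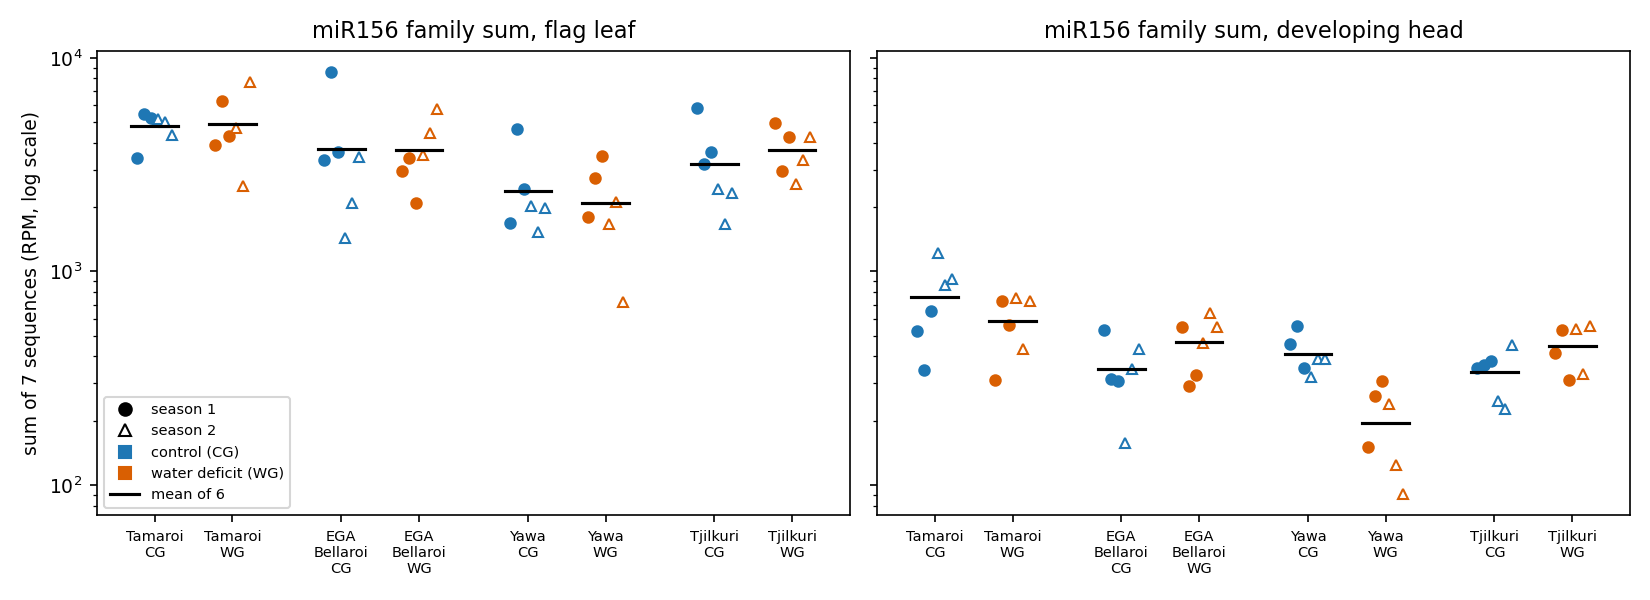
Sum of the 7 miR156 members in RPM (y axis, log scale) for each library of flag leaf (left) and head (right), by genotype and treatment, with circles for season 1, triangles for season 2 and a bar at the mean of 6. Leaf libraries lie between 716 and 8592 RPM, head libraries between 90.6 and 1219 RPM, and the lowest head value is that of a Yawa WG head.

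Under water deficit the main miR156 members were lower in the developing heads of Yawa when all 6 stressed heads were used, and none was called without the 3 heads of low miRNA total. No member was called in the other 7 comparisons of WG with CG. In Yawa heads 5 of 7 members were lower under stress by limma, beside 55.5% of all 110 miRNAs, so most of the table was lower there as well. Ath-miR156b fell from 262 RPM ± 46.8 (lowest 205, median 249, highest 320) in CG to 133 RPM ± 61.3 (60.9, 130, 206) in WG (SD, n = 6). Only the highest stressed head lay above the lowest control head. The log2 change was -1.10 (SE 0.30, adjusted p = 0.00558 by limma). Gma-miR156k fell from 132 RPM ± 44.2 (95.6, 117, 214) to 53.9 RPM ± 20.3 (26.7, 57.2, 84.5), a change of -1.31 (SE 0.32, adjusted p = 0.00451 by limma). It was the only member whose stressed and control heads did not overlap, beside 2.73% of all 110 miRNAs without overlap and lower.

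Among the low members in Yawa heads, Tae-miR156 fell from 8.87 to 4.78 RPM (-1.06, SE 0.37, adjusted p = 0.0175 by limma). Gma-miR156q went from 1.94 to 0.753 RPM (-0.78, adjusted p = 0.0472) and Zma-miR156k from 1.81 to 0.702 RPM (-0.79, adjusted p = 0.0258), with no read of Zma-miR156k in 2 stressed heads. For the last 2 members these are changes of a few reads per library. Ath-miR156g (-0.26, adjusted p = 0.360) and Bdi-miR156h (-0.43, adjusted p = 0.288) did not pass the test.

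The family sum of Yawa heads was 411 RPM (320, 390, 557) in CG and 196 RPM (90.6, 195, 309) in WG, without overlap. The mean under stress was 0.477 of the control mean, 0.528 of it in season 1 and 0.414 in season 2. The total of all 110 miRNAs moved the same way, from 18872 RPM ± 2862 to 11528 RPM ± 5456, and the family's share of it went from 2.21% to 1.79%. The median change was -0.79 for the members and -0.99 for all miRNAs. After median-ratio scaling none of the 7 members was called, Ath-miR156b changed by -0.03 and Gma-miR156k by -0.24, the ratio of family sums was 0.952, and the median of all miRNAs was still at -0.21. The total was 6607 RPM on average in the 3 heads that stood apart and 16449 RPM in the other 3. Their family sums were 90.6 to 151 RPM, with 60.9 to 89.9 RPM of Ath-miR156b and 26.7 to 54.7 RPM of Gma-miR156k. In the other 3 stressed heads the sums were 240 to 309 RPM, with 170 to 206 RPM of Ath-miR156b and 59.7 to 84.5 RPM of Gma-miR156k. With only those 3 in the stressed group, no miRNA of the 110 was called by limma, and 1 member had an unadjusted p under 0.05 beside 3 of all 110. The median change was -0.43 for the members and -0.21 for all. Ath-miR156b then changed by -0.47 (SE 0.33, adjusted p = 0.947) and Gma-miR156k by -0.90 (SE 0.38, unadjusted p = 0.0232, adjusted p = 0.919), and the ratio of family sums was 0.657. Within seasons, the change of Ath-miR156b was -0.94 (adjusted p = 0.366) in season 1 and -1.26 (adjusted p = 0.0192) in season 2, and that of Gma-miR156k -1.03 and -1.59 (adjusted p = 0.00751 in season 2), by limma. Both kept their direction when any replicate label was left out of all groups, but no member was called without 2b (adjusted p = 0.0856 for both) or without 2c (0.0618 and 0.0573), and without 1a only Gma-miR156k was called. Of the stressed heads of low miRNA total, 1a is of season 1 and 2b and 2c of season 2. Here and below, splits by season and label are therefore not separate from the result without those heads.

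**Figure D4:**
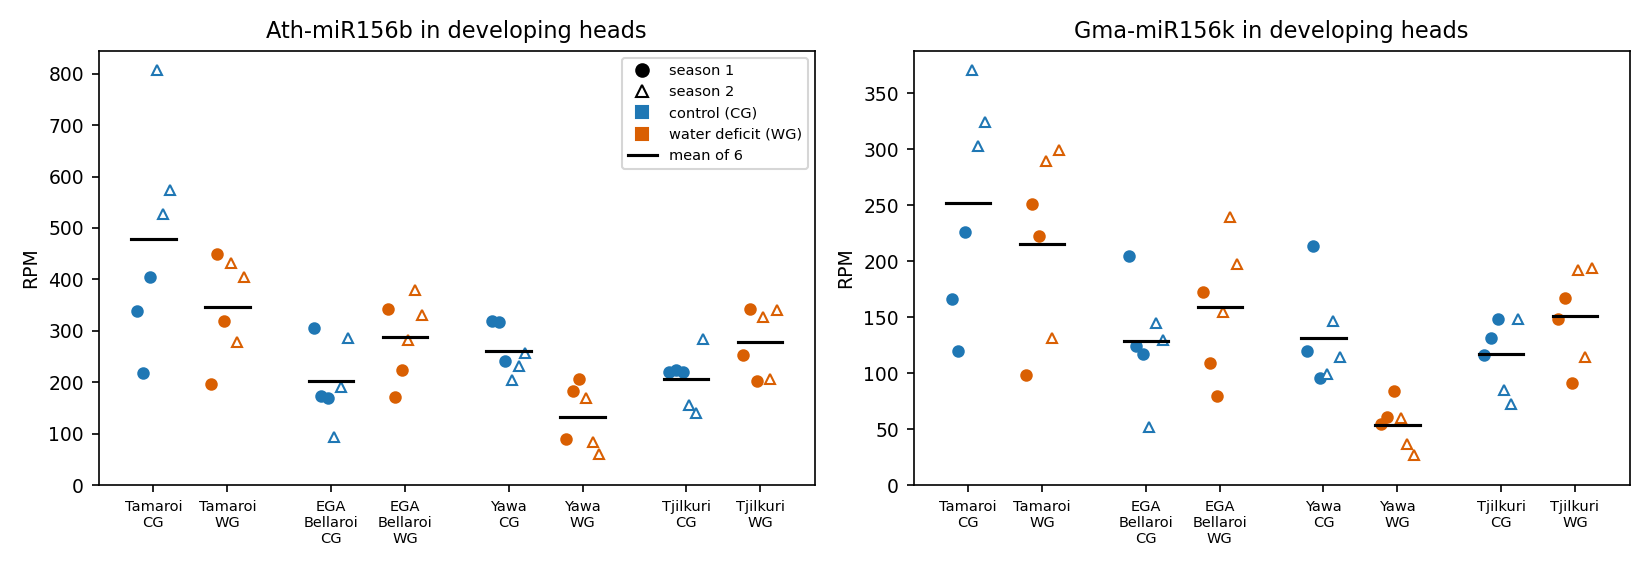
RPM of Ath-miR156b (left) and Gma-miR156k (right) in each head library, by genotype and treatment, with circles for season 1, triangles for season 2 and a bar at the mean of 6. In Yawa the WG heads lie between 60.9 and 206 RPM for Ath-miR156b and between 26.7 and 84.5 RPM for Gma-miR156k.

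In the other 7 comparisons of WG with CG none of 49 member tests passed the adjusted threshold by limma, beside 0% of all 770. Of the 49, 1 had an unadjusted p under 0.05 (Bdi-miR156h in Tjilkuri heads, 0.73, unadjusted p = 0.0469), beside 48 of all 770. In flag leaves the 28 member changes lay between -0.67 and 0.73, and none had an unadjusted p under 0.05. The standard errors of 0.33 to 0.49 leave small changes in the leaf undetectable with this number of plants. By the rule on the ratio of means, 5 of 56 member comparisons differed between WG and CG, beside 16% of all 880. These were Ath-miR156b and Gma-miR156k in Yawa heads and Gma-miR156q in Tamaroi leaves, all lower under stress, and Bdi-miR156h in the leaves of Yawa and Tjilkuri, higher under stress. In Yawa leaves the higher mean of Bdi-miR156h rests on 1 library of 70.2 RPM, with the other 5 between 4.22 and 23.2 RPM.

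**Figure D5:**
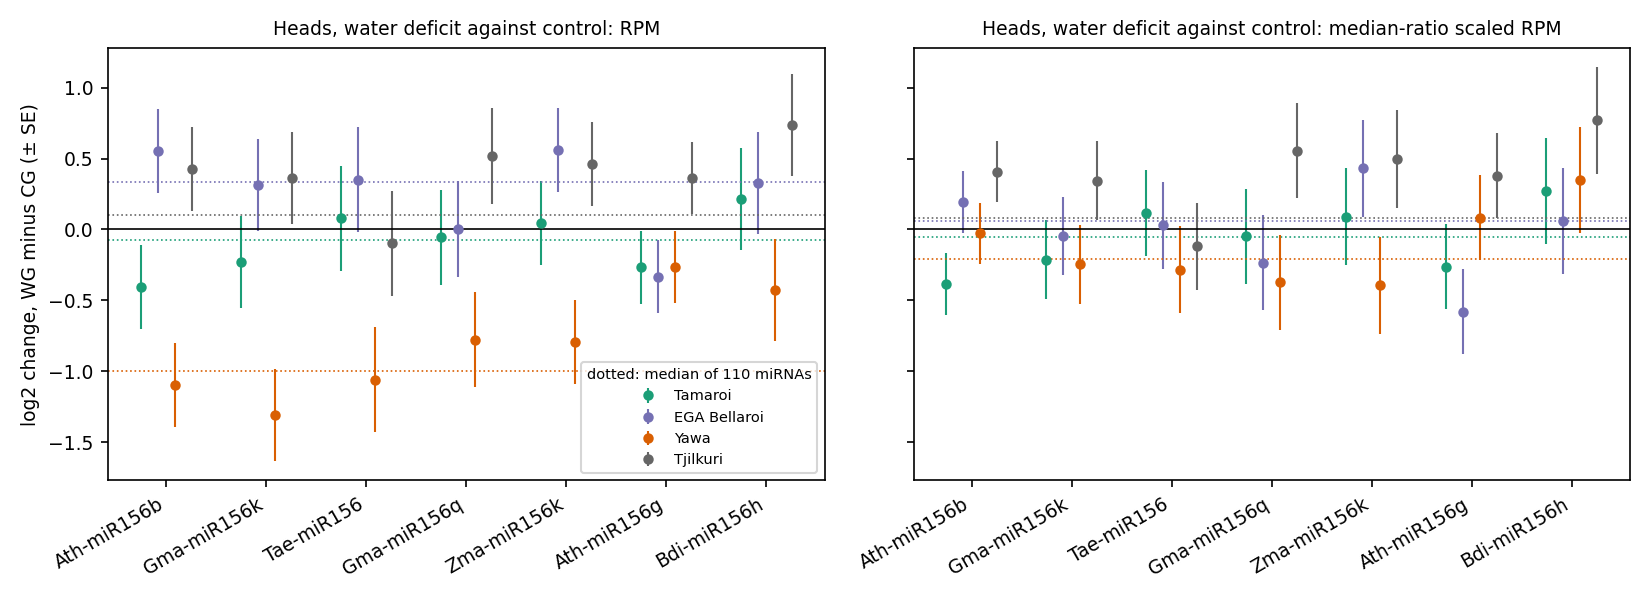
Log2 change of each miR156 member from control to water deficit in developing heads (y axis, ± SE from limma) for 4 genotypes, on RPM (left) and after median-ratio scaling (right). Dotted lines mark the median change of all 110 miRNAs in each genotype, which for Yawa is -0.99 on RPM and -0.21 after scaling. All 6 stressed Yawa heads are included, 3 of them of low miRNA total. The Yawa points for Ath-miR156b and Gma-miR156k move from -1.10 and -1.31 to -0.03 and -0.24.

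Between the paired genotypes, members were called in heads, in 1 comparison of each pair. In control heads Ath-miR156b was higher in Tamaroi, at 479 RPM ± 206 (219, 467, 807), than in EGA Bellaroi, at 203 RPM ± 79.1 (94.1, 183, 305), with overlap between the groups. The log2 difference was 1.21 (SE 0.30, adjusted p = 0.00976 by limma), and 1 of 7 members was called higher beside 7.27% of all 110 miRNAs. Gma-miR156k, at 252 against 129 RPM, differed by 0.96 (SE 0.32, adjusted p = 0.0506) and did not pass. Scaling left the difference of Ath-miR156b in place (0.91, adjusted p = 0.0104). By season it was 0.58 (adjusted p = 0.581) in season 1 and 1.85 (adjusted p = 0.0300) in season 2, and without the libraries labelled 2a it was 0.84 (adjusted p = 0.198), by limma. The family sum of Tamaroi control heads was 2.16 times that of EGA Bellaroi, 1.33 times in season 1 and 3.19 times in season 2.

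In stressed heads of the other pair, 4 of 7 members were lower in Yawa than in Tjilkuri, beside 29.1% of all 110 miRNAs. Ath-miR156b had a mean of 133 RPM in Yawa beside 279 RPM ± 66.5 (202, 290, 343) in Tjilkuri, a difference of -1.17 (SE 0.30, adjusted p = 0.0153 by limma). Gma-miR156k had 53.9 RPM beside 151 RPM ± 41.6 (91.1, 158, 194), without overlap, a difference of -1.51 (SE 0.32, adjusted p = 0.00296 by limma). Gma-miR156q, at 0.753 against 2.54 RPM, also showed no overlap (-1.06, adjusted p = 0.0297), and 3.64% of all 110 miRNAs were lower in Yawa without overlap. Zma-miR156k passed as well (-0.81, adjusted p = 0.0438), while Tae-miR156 (-0.89, adjusted p = 0.0590), Ath-miR156g (-0.53, adjusted p = 0.102) and Bdi-miR156h (-0.33, adjusted p = 0.472) did not. The median difference was -0.89 for the members and -0.72 for all miRNAs. After scaling no member was called, with Gma-miR156k at -0.62 (adjusted p = 0.274). The family sum in Yawa was 0.439 of that in Tjilkuri, 0.573 in season 1 and 0.320 in season 2, and 0.788 after scaling. Within seasons Gma-miR156k differed by -0.99 (adjusted p = 0.626) and -2.03 (adjusted p = 0.0116), and Ath-miR156b by -0.78 and -1.56 (adjusted p = 0.0180 in season 2), by limma. Without the libraries labelled 1a or 2b Gma-miR156k alone was called, and without 2c none of these 4 members was, with Gma-miR156k at -1.25 (adjusted p = 0.143). Without libraries under 1 M reads Gma-miR156k alone was called (-1.43, adjusted p = 0.0163), and lower calls numbered 2 at a pseudocount of 5. This comparison shares the Yawa WG heads with the comparison of stress and control above. Without the 3 of low miRNA total none of the 110 miRNAs was called, and 2 members had an unadjusted p under 0.05 beside 9 of all 110. Ath-miR156b then differed by -0.54 (adjusted p = 0.496) and Gma-miR156k by -1.10 (adjusted p = 0.330).

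The other 6 genotype comparisons gave no call in 42 member tests, beside 0.455% of all 660. By limma 6 of the 42 had an unadjusted p under 0.05, beside 74 of all 660. The largest of these differences was Gma-miR156k in stressed leaves, for which Yawa held 814 RPM ± 357 and Tjilkuri 1639 RPM ± 417 (-1.12, SE 0.36, adjusted p = 0.110). The lowest of these Yawa values, 282 RPM, was that of leaf 2c, which had the lowest miRNA total of all leaf libraries. By the rule on the ratio of means, 14 of 56 member comparisons differed between the genotypes of a pair, 6 higher and 8 lower in the tolerant one, beside 21.1% of all 880.

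Whether the response to water deficit differed between genotypes labelled tolerant and sensitive was asked with the genotypes of a label pooled. The fit held no term for genotype, so libraries of different genotypes stood as replicates of a label. Its p therefore does not measure the spread between genotypes. Over both organs, the response of tolerant genotypes minus that of sensitive ones was below 0 for 7 of 7 members and passed for Ath-miR156b (-0.81, SE 0.27, adjusted p = 0.0314 by limma), which is 1 of 7 beside 25.5% of all 110 miRNAs called lower. The median was -0.55 for the members and -0.48 for all, so the table as a whole was shifted below 0 as well. After scaling Ath-miR156b was at -0.32 (adjusted p = 0.263), and by season it was at -0.17 in season 1 and -1.45 (adjusted p = 0.00750) in season 2. The 96 libraries came from 48 plants, and with the libraries of 1 plant taken as correlated the call was lost (adjusted p = 0.113). It was also lost in heads alone (-1.24, adjusted p = 0.0606), in leaves alone (-0.37, adjusted p = 0.655), without libraries under 1 M reads (-0.73, adjusted p = 0.0549) and without the 3 Yawa WG heads of low miRNA total (-0.59, adjusted p = 0.167). The same held when the libraries labelled 1a (adjusted p = 0.0868), 2a (0.0891), 2b (0.235) or 2c (0.148) were left out.

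Pair by pair, the response of Yawa heads differed from that of Tjilkuri heads for Ath-miR156b (-1.53, SE 0.42, adjusted p = 0.0390 by limma) and Gma-miR156k (-1.67, SE 0.46, adjusted p = 0.0390). These 2 members were the only sequences called among the 110, which is a background of 1.82%, although 52 of the 110 miRNAs had an unadjusted p under 0.05 there. In Tjilkuri heads Ath-miR156b was at 208 RPM ± 52.6 in CG and 279 RPM ± 66.5 in WG, with overlap between the groups and no call. After scaling the differences were -0.44 and -0.59 and neither passed (adjusted p = 0.384 for both). Within seasons they were -1.17 and -1.03 in season 1 (adjusted p = 0.581 for both) and -1.88 and -2.31 in season 2 (adjusted p = 0.0503 and 0.0412). Both calls were lost without the libraries labelled 1a (adjusted p = 0.152 and 0.0993), 2a (0.0520), 2b (0.243) or 2c (0.214), and without the 4 shallow head libraries (0.101). Without the 3 Yawa WG heads of low miRNA total the differences were -0.90 and -1.26 and neither passed (adjusted p = 0.843 for both), nor did any other of the 110 miRNAs. An unadjusted p under 0.05 was then found for 3 members, beside 4 of all 110. In the other 3 pairs of organ and genotypes none of 21 member tests passed, beside 0% of all 330. Of the 21, 1 had an unadjusted p under 0.05, beside 25 of all 330.

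Between growing seasons no member was called in either organ, in 14 tests by limma, beside 2.73% of all 110 miRNAs in FL and 8.18% in H. In FL 3 members had an unadjusted p under 0.05 by limma, beside 28 of all 110 miRNAs. All 3 were lower in season 2, namely Ath-miR156b (-0.35), Gma-miR156k (-0.42) and Tae-miR156 (-0.45). After scaling Tae-miR156 was called lower in heads of season 2 (-0.46, adjusted p = 0.0205).

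The only other listed miRNA of the pathway was Bdi-miR172a, as none of the 110 names belonged to MIR157, MIR529 or MIR535, the sequence relatives of miR156.
Bdi-miR172a: aGAATCTTgatgatgctgcat

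This miR172 was scarce in both organs, at 6.03 RPM ± 3.87 in FL and 2.54 RPM ± 2.04 in H (SD, n = 48), with medians of 27 and 9 reads per library. It was higher in the leaf of 41 of 48 plants by a median of 2.49-fold, and passed as lower in heads in 4 of 8 comparisons on RPM and in none after scaling. In Yawa heads Bdi-miR172a went from 4.55 RPM in CG to 1.24 RPM in WG (-1.27, SE 0.43, adjusted p = 0.0154 by limma), and after scaling the change was -1.13 (adjusted p = 0.0632). Its interaction of tolerance and treatment was -0.95 (SE 0.32, adjusted p = 0.0314) and -0.75 after scaling (adjusted p = 0.0965). In the 3 stressed Yawa heads of low miRNA total Bdi-miR172a was at 0 to 0.218 RPM, and in the other 3 at 1.05 to 3.73 RPM. Without the former the change was -0.47 (adjusted p = 0.947) and the interaction -0.76 (adjusted p = 0.149).

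As a description of likeness, the members and the other miRNAs were ranked by Spearman correlation with the family sum, and libraries share depth, organ and the RPM base. Ath-miR156b and Gma-miR156k rose and fell together, with a rho of 0.972 over 48 leaf and 0.903 over 48 head libraries. Bdi-miR156h was least like the family sum in FL (0.366), and Ath-miR156g in H (0.376). Outside the family and over all 96 libraries, Hvu-miR5049d (0.904), Hvu-miR5049c (0.887), Zma-miR166h (0.881), Osa-miR1436 (0.878) and Bdi-miR167e (0.874) came closest, beside a median of 0.593 for the 103 other miRNAs. These 96 libraries include the difference between organs. Within leaves the closest were Bdi-miR159-5p (0.778), Bdi-miR166a (0.640), Bdi-miR159-3p (0.640), Hvu-miR5049d (0.634) and Zma-miR166l (0.605), beside a median of 0.238. Within heads they were Bdi-miR167e (0.742), Hvu-miR5049d (0.692), Osa-miR444b (0.684), Osa-miR1436 (0.667) and Zma-miR166h (0.630), beside a median of 0.356. Hvu-miR5049d was on all 3 lists.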

How the data were processed

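Small RNA of gel-purified size was taken from total RNA of 96 flag leaf and head samples and sequenced (Illumina). The authors trimmed the reads to 15 to 50 nt in CLC Genomics Workbench 7.0, matched them, allowing up to 2 mismatches, to the miRBase 20 entries of 9 plants, and deposited RPM, the reads per 1000000 small RNA reads. The listed sequences had at least 2 RPM in at least 50% of libraries, so a member below that in most libraries is not analysed here. The deposited RPM values were whole multiples of 1 read per library (10451 of 10451 values above 0, within 0.01 reads), which gave depths of 0.609 to 36.1 M reads. Genome positions of the sequences are not given in the sources used here. A table of hairpins without a match to known miRNAs was not used.

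Groups came from the labels. Tests were run on log2(RPM + 1) with limma 3.58.1 (trended, moderated) in R 4.3.3, over all 110 miRNAs with Benjamini-Hochberg adjustment per comparison at 0.05. Organs were compared over all 96 libraries, and genotypes, treatments and their pair responses over the 48 of an organ. The interaction was fitted over all 96 with a term for organ and none for genotype. Beside these stood the rule used with the deposited values, a ratio of mean RPM above 1.5 with 0 set to 0.01 and at least 10 RPM in 1 group. Family sums and ratios between members got no test. Figures and summaries used Python 3.11.15 with pandas 2.3.3, and scripts were tested on simulated data.

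Named were all members, the 5 miRNAs most like the family sum over all libraries and in each organ, and every row of MIR157, MIR172, MIR529 and MIR535. Members and lists were chosen with earlier results of these data known. Plant numbers in the labels pair the organs: the deviations of leaf and head of 1 plant from their group means correlated at a median of 0.466 over the 110 miRNAs (0.00134 to 0.821), and the fit with the plant as a block changed none of the 56 organ calls. Alternatives were other pseudocounts, a filter on low values, median-ratio scaling, each season alone, season as a covariate, and leaving out shallow libraries or each replicate label.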

Additional observations from a re-analysis of the deposited data

Results flagged for a closer look

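In 20 of 128 sets of 6 libraries, 1 library stood apart from the other 5 by Dixon's test. Its cutoff flags about 1 in 20 independent sets of normally distributed values. The sets share libraries and RPM was not checked for that distribution, so the count cannot be set against that rate. Several of the 20 are from the same library. EGA Bellaroi FL CG 1b held the highest value of its group for 6 members, at 4460 RPM for Ath-miR156b (others 814 to 1948), 3797 for Gma-miR156k, 195 for Tae-miR156, 86.6 for Gma-miR156q, 23.0 for Zma-miR156k and 14.0 for Ath-miR156g, with a family sum of 8592 RPM beside 1439 to 3616 in the others. That library also had the highest total of the 110 miRNAs among leaf libraries (62618 RPM). Yawa FL CG 1b was highest for Ath-miR156b (2493 RPM), Gma-miR156k (2028 RPM) and the family sum (4662 RPM, others 1528 to 2431). EGA Bellaroi FL WG 2c was highest for Tae-miR156 (111 RPM), Gma-miR156q (53.6 RPM) and Zma-miR156k (26.8 RPM), and Tjilkuri FL CG 1a for Zma-miR156k (37.3 RPM, others 7.24 to 10.8) and Ath-miR156g (12.6 RPM). In Yawa FL WG 1c, Bdi-miR156h stood at 70.2 RPM. Among heads, single libraries stood apart for Tae-miR156 (EGA Bellaroi WG 1a, 23.8 RPM, a library of 0.714 M reads), Gma-miR156q (Tamaroi WG 2a, 7.55 RPM), Zma-miR156k (EGA Bellaroi WG 2c, 2.95 RPM) and Bdi-miR156h (Tamaroi WG 1a, lowest at 1.71 RPM, others 4.61 to 6.29).

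The response to water deficit differed between groups of genotypes in 4 tests by limma, each lost after median-ratio scaling and without the 3 Yawa WG heads of low miRNA total. These were the interaction of tolerance and treatment for Ath-miR156b (-0.81) and for Bdi-miR172a (-0.95), and the response of Yawa heads minus that of Tjilkuri heads for Ath-miR156b (-1.53) and Gma-miR156k (-1.67).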

How the results depend on the processing

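The lower level of miR156 in heads kept its direction under every alternative run, with 47 to 56 calls (47 of 47 tested at a mean of at least 10 RPM in 1 group, 54 after median-ratio scaling, 53 in season 1 alone, 56 to 56 without any replicate label), 56 with the plant as replicate block, and 56 with scaling and the plant block together, a setting chosen after seeing the data. The filter at 10 RPM admitted Gma-miR156q, Zma-miR156k and Bdi-miR156h only through leaves, as their highest head group means were 3.88, 2.26 and 4.86 RPM. Tae-miR156 also entered through leaves where its head mean was under 10 RPM (lowest 4.78). Calls of such members under the filter are no added support. Leaf-to-head ratios of the family sum after scaling were smaller, at 4.90 in Tamaroi WG, 4.76 and 4.33 in EGA Bellaroi CG and WG, 3.66 and 3.86 in Yawa, and 5.48 and 4.75 in Tjilkuri, and scaling moved the ratio of Yawa to Tjilkuri stressed heads to 0.788 and of stressed to control Yawa heads to 0.952. The 5 genotype calls became 3 at a pseudocount of 5, 1 after scaling, 2 without libraries under 1 M reads, 0 in season 1 alone and 1 to 7 without a replicate label. The 5 treatment calls became 3 at a pseudocount of 5, 2 with the filter, 0 after scaling, 0 and 3 in seasons 1 and 2 alone, and 0 to 5 without a replicate label. The 0 season calls became 1 after scaling, and stayed between 0 and 0 without any replicate label. The 1 interaction call became 2 at a pseudocount of 0.5, 5 in season 2 alone, 0 to 3 without a replicate label, and 0 after scaling, without shallow libraries, in season 1 alone, with libraries of 1 plant taken as correlated, and in either organ alone. The 2 pair calls became 4 with all 96 libraries in the fit, 1 in season 2 alone, 0 to 4 without a replicate label, and 0 after scaling, without shallow libraries, in season 1 alone and with the replicate label as a block. Without the 3 Yawa WG heads of low miRNA total, a setting also chosen after seeing the data, organ calls were 56, genotype calls 2, and treatment, season, interaction and pair calls 0, and signs turned for Tae-miR156 (0.039) and Bdi-miR156h (0.21) in Yawa against Tjilkuri stressed heads and for Bdi-miR156h in Yawa heads under stress (0.10). Replicate labels 1a to 2c do not mark the same plant across genotypes or treatments, and deviations of same-labelled libraries correlated at medians of 0.0990 and 0.121, with 11 and 10 of 48 libraries closest to their own label. With that label as a replicate block, genotype, treatment and interaction calls were 4, 4 and 1. Signs turned in season 1 alone for Tamaroi against EGA Bellaroi control heads (Tae-miR156 -0.36, Gma-miR156q -0.21, Bdi-miR156h -0.13) and for the interaction (Gma-miR156k 0.076, Tae-miR156 0.23, Ath-miR156g 0.11), and after scaling for Bdi-miR156h in that genotype comparison (-0.067), in Yawa against Tjilkuri stressed heads (0.32) and in Yawa heads under stress (0.35), as for Ath-miR156g there (0.082). None of these had passed the test as reported. Some alternatives held fewer libraries or sequences, and the cause of the changes was not tested. Count-based tests were planned as alternatives and not run.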
